A study of Mus musculus with 20 samples.

Results

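The HOX cluster genes are the homeobox genes of the Hoxa, Hoxb, Hoxc and Hoxd clusters. They were taken as every gene of the deposited table whose symbol joins a cluster letter from A to D to a paralog number, which gave 39 of 45777 genes, with 11 in cluster A, 10 in B, 9 in C and 9 in D. The table holds RNA-seq levels in the uteri of 20 mice in 4 groups of 5. Of the 39 genes, 28 were above 0 TPM (a level within a fixed library total, scaled for transcript length) in all 20 libraries and were tested together with 18706 genes in all.

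HOX genes encode transcription factors that give cells their position along the body axis. Within each cluster they lie in the order of their paralog numbers, low numbers being used toward the head and high numbers toward the tail, and genes of the same number in different clusters are descendants of a common ancestor. In the reproductive tract the higher-numbered genes divide the Müllerian duct, with Hoxa9 used in the oviduct, Hoxa10 and Hoxa11 in the uterus, and Hoxa13 in the cervix and upper vagina. Hoxa10 and Hoxa11 remain active in the adult uterus, where progesterone supports them and where females that lack either gene are infertile or subfertile because the uterus cannot sustain implantation. HOX proteins bind DNA together with TALE homeodomain partners of the Pbx, Meis and Pknox families.

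All 20 mice were wild-type B6D2F1 females, 8 to 12 weeks old when mated, and whole uterine tissue was taken at 18:00 on day 3.5, the morning of the plug being day 0.5. The control group received neither RU486 nor cells. The IF (implantation failure) group was given low-dose RU486 under the skin on the morning of day 3.5. RU486 (mifepristone) blocks the progesterone and glucocorticoid receptors. The PBMC and PBMC-hCG groups received the same RU486 and had been given peripheral blood mononuclear cells (PBMCs) of other female mice into the uterus on day 1.5. Those cells had been cultured without hCG for the PBMC group and with hCG, human chorionic gonadotropin, for the PBMC-hCG group. RU486 without cells but with an intrauterine injection of medium was not analysed here, so the cells and the injection itself cannot be told apart. In tissue as mixed as a whole uterus, fewer cells of a type and less RNA per cell cannot be told apart either.

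The libraries summed to 999989 to 999999 TPM, so the read depth behind them was unknown and counting error could not be computed. Marker sums of the other tissues were compared first. Myometrial markers (11 genes) summed to 6721 to 12053 TPM in the control group, 6750 to 8145 in the IF group, 6508 to 8021 in the PBMC group and 5453 to 6933 in the PBMC-hCG group. Stromal markers (11 genes) summed to 10712 to 11424 TPM in 4 control mice and to 6167 TPM in control replicate 2, which also had 417 TPM of 6 adipose markers against 3.43 to 14.5 TPM in the other controls. Endothelial markers (7 genes) were at 433 to 537 TPM in control mice and 588 to 793 TPM over the other groups. Cervical and vaginal markers (7 genes) stayed low but did not overlap between the control group (1.25 to 1.80 TPM) and the IF group (3.68 to 6.99 TPM). Ovarian and oviductal markers (12 genes) did not overlap either, at 52.9 to 67.0 TPM (control) and 74.3 to 114 TPM (IF), with 1 of 8 tested called higher and 1 lower. Of 12 epithelial markers 6 were called higher and 2 lower in that comparison. Called higher were also 4 of 11 stromal, 6 of 7 endothelial and 3 of 12 tested immune cell markers, with 0 lower in each list. Of 11 myometrial markers 0 were called higher and 2 lower. Over all tested genes 13.4% were called higher and 8.53% lower. The part of these differences in the HOX results was not tested.

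Between the IF and control groups 6 HOX genes passed the test, and the 300 bases around their starts, 250 before and 50 after, are shown to put the genes that fell (Hoxa9, Hoxa10, Hoxa11) and those that rose (Hoxd3, Hoxd8, Hoxd9) side by side. The sequences are those of RefSeq on GRCm38.p6. Capitals mark the hexamer of the progesterone and glucocorticoid response element (TGTTCT, or AGAACA when read on the other strand) and that of the estrogen response element (AGGTCA, or TGACCT on the other strand).
Hoxa9 (chr6:52227321-52227620, minus strand): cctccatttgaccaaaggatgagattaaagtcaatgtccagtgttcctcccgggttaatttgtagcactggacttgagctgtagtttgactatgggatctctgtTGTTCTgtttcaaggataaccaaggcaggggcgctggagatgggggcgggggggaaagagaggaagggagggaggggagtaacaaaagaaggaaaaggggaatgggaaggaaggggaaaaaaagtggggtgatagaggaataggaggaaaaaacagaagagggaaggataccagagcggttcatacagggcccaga
Hoxa10 (chr6:52240805-52241104, minus strand): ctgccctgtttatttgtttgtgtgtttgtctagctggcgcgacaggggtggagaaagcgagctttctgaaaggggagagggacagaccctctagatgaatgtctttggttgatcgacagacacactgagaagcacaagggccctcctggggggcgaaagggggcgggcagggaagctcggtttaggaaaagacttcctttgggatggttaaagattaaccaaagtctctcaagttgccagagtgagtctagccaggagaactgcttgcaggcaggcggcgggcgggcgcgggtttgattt
Hoxa11 (chr6:52245761-52246060, minus strand): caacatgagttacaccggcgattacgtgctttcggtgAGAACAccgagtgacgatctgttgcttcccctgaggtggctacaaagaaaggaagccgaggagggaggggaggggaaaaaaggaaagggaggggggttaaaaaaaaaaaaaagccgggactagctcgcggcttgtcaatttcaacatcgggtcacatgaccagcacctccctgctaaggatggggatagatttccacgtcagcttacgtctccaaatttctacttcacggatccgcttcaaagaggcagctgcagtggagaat
Hoxd3 (chr2:74711743-74712042, plus strand): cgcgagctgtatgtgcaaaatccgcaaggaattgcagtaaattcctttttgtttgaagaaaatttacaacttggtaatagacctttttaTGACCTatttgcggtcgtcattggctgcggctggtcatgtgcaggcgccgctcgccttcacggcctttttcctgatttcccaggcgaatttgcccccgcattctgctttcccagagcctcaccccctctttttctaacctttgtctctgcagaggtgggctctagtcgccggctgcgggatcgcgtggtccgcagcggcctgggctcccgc
Hoxd8 (chr2:74704365-74704664, plus strand): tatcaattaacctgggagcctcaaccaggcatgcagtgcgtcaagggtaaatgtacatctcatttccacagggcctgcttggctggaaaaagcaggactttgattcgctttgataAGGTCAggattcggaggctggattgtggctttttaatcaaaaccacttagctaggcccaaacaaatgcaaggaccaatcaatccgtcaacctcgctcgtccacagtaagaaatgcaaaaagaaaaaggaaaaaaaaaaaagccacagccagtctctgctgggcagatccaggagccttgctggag
Hoxd9 (chr2:74697513-74697812, plus strand): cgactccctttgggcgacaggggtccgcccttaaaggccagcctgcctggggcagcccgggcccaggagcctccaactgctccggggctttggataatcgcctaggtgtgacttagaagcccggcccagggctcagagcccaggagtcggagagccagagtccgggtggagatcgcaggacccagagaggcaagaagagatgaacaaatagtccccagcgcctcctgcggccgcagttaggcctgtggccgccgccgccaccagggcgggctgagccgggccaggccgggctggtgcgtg

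RefSeq promoters were matched for 22 of the 39 genes, 24 sequences in all, Hoxa10 and Hoxd11 each having a further start. The further promoter of Hoxa10 held none of the motifs searched. TGTTCT, searched on both strands, was found in 2 of the 24, those of Hoxa9 (146 bases before the start) and Hoxa11 (213 bases before it), and in 19.0% of 32851 promoters of the same length. AGGTCA was found in 7 of the 24 and in 16.3% of all promoters. The 7 were those of Hoxd3 (161 bases before the start), Hoxd8 (135 bases before it), Hoxa5, Hoxb4, Hoxc4, Hoxd4 and Hoxd10. Of these genes only Hoxd3 and Hoxd8 were called between the IF and control groups. The site shared by HOX and PBX proteins, TGATNNAT on both strands, was found in 4 of the 24 and in 8.85% of all promoters. The 4 were those of Hoxa2, Hoxb1, Hoxb8 and Hoxd11 (only its promoter at chr2:74682073-74682372). These matches describe the letters of the window and say nothing of binding.

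In the control uterus the HOX signal came mainly from the high-numbered genes of cluster A. Hoxa10 was at 259 ± 12.5 TPM (mean ± SD, n = 5) and Hoxa11 at 213 ± 13.5 TPM, and the other HOX genes had means of 53.2 TPM or below. Next came Hoxd10, Hoxd9 and Hoxb6 at 53.2 ± 4.67, 51.8 ± 7.10 and 51.7 ± 13.05 TPM, which lay within each other's spread. Summed over clusters, paralog number 10 made up 35.6% and number 11 another 27.99% of the TPM of the 39 genes, whereas number 13 made up 0.0658%. Genes of the middle of cluster B (Hoxb2 to Hoxb8) were at 9.96 to 51.7 TPM, while the same numbers in cluster A (Hoxa2 to Hoxa7) were at 0.177 to 2.11 TPM. Cluster C was near silent, with a sum of 6.42 ± 2.36 TPM over its 9 genes.

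**Figure D1:**
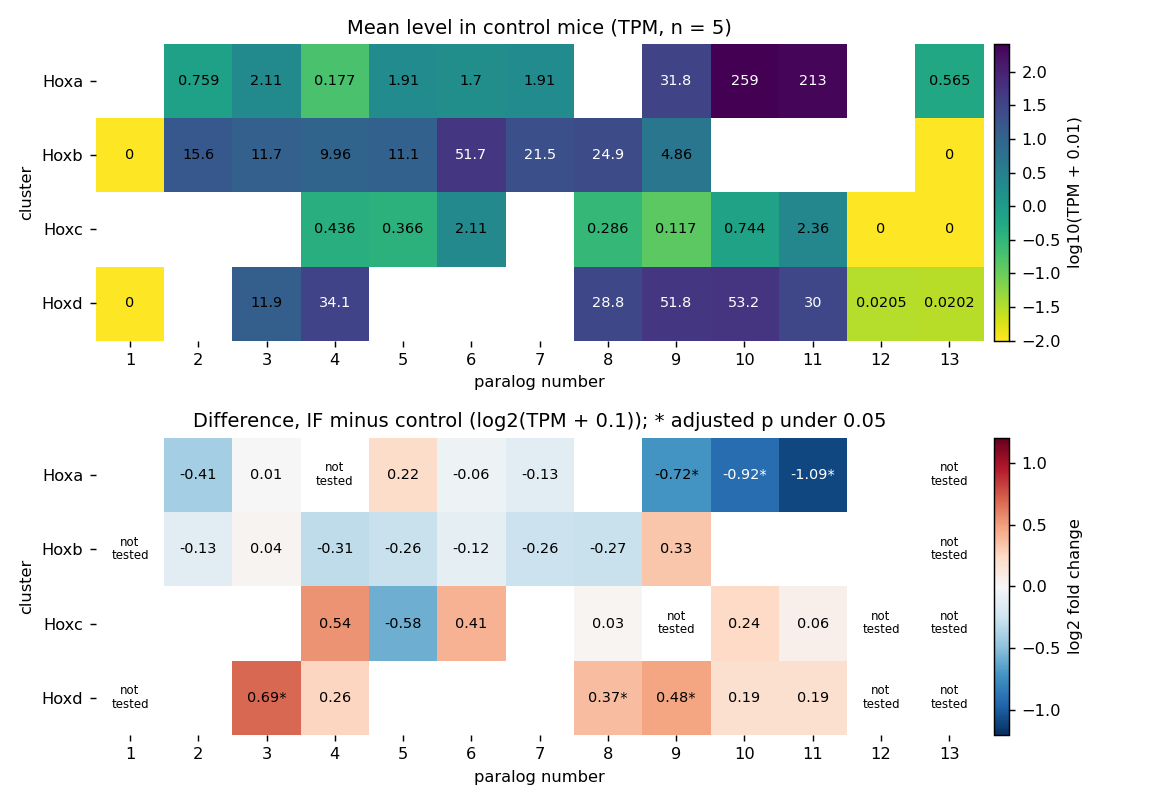
HOX genes (all but 1 of the 39) by cluster (rows) and paralog number (columns), with the mean TPM of the 5 control mice above and the log2 difference of the IF from the control group below, where an asterisk marks an adjusted p under 0.05. The 3 genes that fell are Hoxa9, Hoxa10 and Hoxa11 and the 3 that rose all lie in cluster D.

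The IF group was compared with the control group to see what RU486 changed before implantation. Of the 28 tested HOX genes 3 fell and 3 rose with an adjusted p under 0.05 in limma's test (Benjamini-Hochberg over all tested genes). Over all 18706 genes 8.53% were called lower and 13.4% higher. The number of HOX genes called was thus close to the background (11 of 28 at a raw p under 0.05, against 6334 of 18706). Their median log2 fold change was 0.02, as was that of all tested genes, but it moved to 0.12 without control replicate 2 (all genes 0.01) and to −0.01 with size factors (all genes −0.01). The direction of the called genes split by cluster. The genes that fell were neighbours at the tail end of cluster A, and the genes that rose were all in cluster D. In cluster D 6 of 6 tested genes had positive differences, against 53.4% of all tested genes. Cluster A had 6 negative and 2 positive differences, and so had cluster B, where no gene was called. All 6 calls were kept under 20 other settings at this threshold, which included quantile normalization, size factors and each of the 10 mice of these groups left out in turn.

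Hoxa11 was at 208, 222, 229, 214 and 194 TPM in the control mice. In the IF mice it was at 102, 106, 115, 110.4 and 72.3 TPM. Every IF mouse was below every control mouse, and Hoxa11 fell by 1.09 ± 0.12 on the log2 scale (SE, adjusted p = 4.0e-06). It was the only HOX gene to meet the study's criteria (2-fold or more, raw p under 0.05) in this comparison, as 4.03% of all tested genes did. The PBMC mice stood at 104, 126, 103, 116 and 80.1 TPM and the PBMC-hCG mice at 117, 106, 119, 133 and 136 TPM. No mouse given RU486, with or without cells, reached the lowest control value.

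Hoxa10 was the most abundant HOX transcript of the uterus in every group. Its levels were 250.1, 281, 253, 257 and 253 TPM in the control mice and 140.0, 146, 171, 143 and 96.4 TPM in the IF mice. The groups did not overlap, and the gene fell by 0.92 ± 0.13 on the log2 scale (adjusted p = 8.3e-05). In the PBMC group it was at 166, 169.6, 140.3, 170.1 and 103 TPM and in the PBMC-hCG group at 165, 177, 182, 205 and 189 TPM. All PBMC-hCG mice were below the lowest control, and all but 1 of them were above the highest IF mouse.

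Hoxa9, at lower levels than its neighbours, moved the same way. The control mice had 32.8, 39.5, 32.7, 27.2 and 26.9 TPM and the IF mice 21.8, 19.2, 25.3, 18.7 and 12.97 TPM, again without overlap. It fell by 0.72 ± 0.19 on the log2 scale (adjusted p = 0.0093). The PBMC mice had 25.7, 25.5, 20.6, 19.7 and 12.5 TPM and the PBMC-hCG mice 22.4, 19.8, 25.1, 24.6 and 27.3 TPM. The other tested genes of cluster A, Hoxa2, Hoxa3, Hoxa5, Hoxa6 and Hoxa7, had means of 0.493 to 2.18 TPM in the IF group and log2 differences from control of −0.41 to 0.22, none of which passed the test.

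In cluster D the differences ran the other way. Hoxd8 had the smallest spread, with 31.5, 29.9, 29.99, 26.8 and 26.0 TPM in the control mice and 38.0, 37.9, 36.2, 38.99 and 34.9 TPM in the IF mice. These groups did not overlap, and the log2 fold change was 0.37 ± 0.06 (adjusted p = 2.0e-04). The PBMC mice had 41.5, 37.2, 42.6, 40.2 and 40.9 TPM and the PBMC-hCG mice 38.1, 39.3, 40.0, 42.9 and 37.2 TPM, so that all 15 mice given RU486 were above all 5 controls.

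Hoxd9, the cluster D paralog of Hoxa9, was at 53.7, 61.5, 52.4, 49.2 and 42.0 TPM in the control mice. The IF mice had 75.0, 72.5, 81.1, 75.3 and 56.7 TPM. IF replicate 5 alone was within the control range, and the rise was 0.48 ± 0.10 on the log2 scale (adjusted p = 0.0015). In the PBMC group it was at 74.3, 79.0, 67.4, 75.9 and 66.1 TPM and in the PBMC-hCG group at 77.5, 68.9, 78.6, 78.9 and 80.8 TPM, above every control. Hoxd3 was at 12.0, 16.0, 10.3, 12.2 and 9.02 TPM in the control mice and 20.6, 20.2, 23.4, 17.5 and 14.3 TPM in the IF mice. It rose by 0.69 ± 0.15 on the log2 scale (adjusted p = 0.0033), with IF replicate 5 below the highest control. Hoxd3 was at 22.1, 23.6, 20.4, 19.8 and 15.9 TPM in the PBMC mice and 23.2, 17.5, 19.9, 15.9 and 21.3 TPM in the PBMC-hCG mice. Hoxd3 and Hoxd4 share 388 exon bases on the same strand in GENCODE M21, and the transcript Gm28230 on that strand covers 2225 exon bases of Hoxd3 (53.1%) and 1154 of Hoxd4 (39.1%). How reads there were divided is not given in the sources used here.

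**Figure D2:**
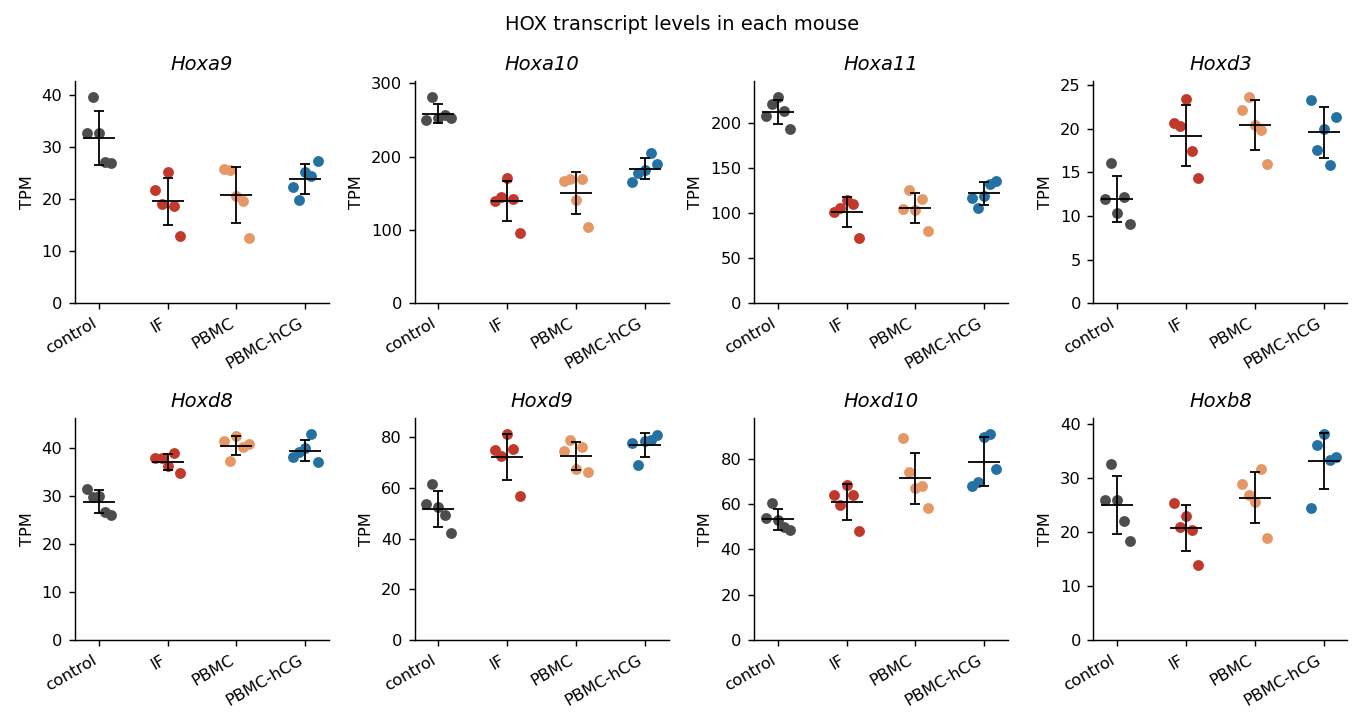
TPM (linear axis from 0) of 8 HOX genes in each of the 20 mice by group, with the mean (bar) and SD (whiskers) of the 5 mice. Hoxa9, Hoxa10 and Hoxa11 of the IF mice lie below all control mice, and Hoxd8 of all mice given RU486 lies above them.

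Opposite moves of genes in clusters A and D changed what the uterine HOX signal was made of. Cluster A summed to 513 ± 28.1 TPM in control mice (58.4% of the TPM of the 39 genes) and to 268 ± 49.1 TPM in the IF group (39.6%). Cluster D summed to 209.9 ± 23.5 TPM (23.8%) and 264 ± 32.7 TPM (39.3%). Clusters B and C changed less, B from 151 ± 30.6 to 135 ± 22.1 TPM and C from 6.42 ± 2.36 to 7.32 ± 1.42 TPM. The share of cluster A was 55.0% to 61.4% in the control mice and 36.6% to 41.2% in the IF mice, 35.0% to 41.2% in the PBMC mice and 39.5% to 42.6% in the PBMC-hCG mice. Most of the cluster A sum of the control mice came from Hoxa10 (259 TPM) and Hoxa11 (213 TPM), so its share mainly restates their fall. These sums are descriptions and were not tested. Shares leave out the overall level, which was 880.4 ± 82.4 TPM (control), 676 ± 102 TPM (IF), 739 ± 93.2 TPM (PBMC) and 830.4 ± 51.3 TPM (PBMC-hCG). The total of the PBMC-hCG group was thus near that of the control group while its make-up was not.

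**Figure D3:**
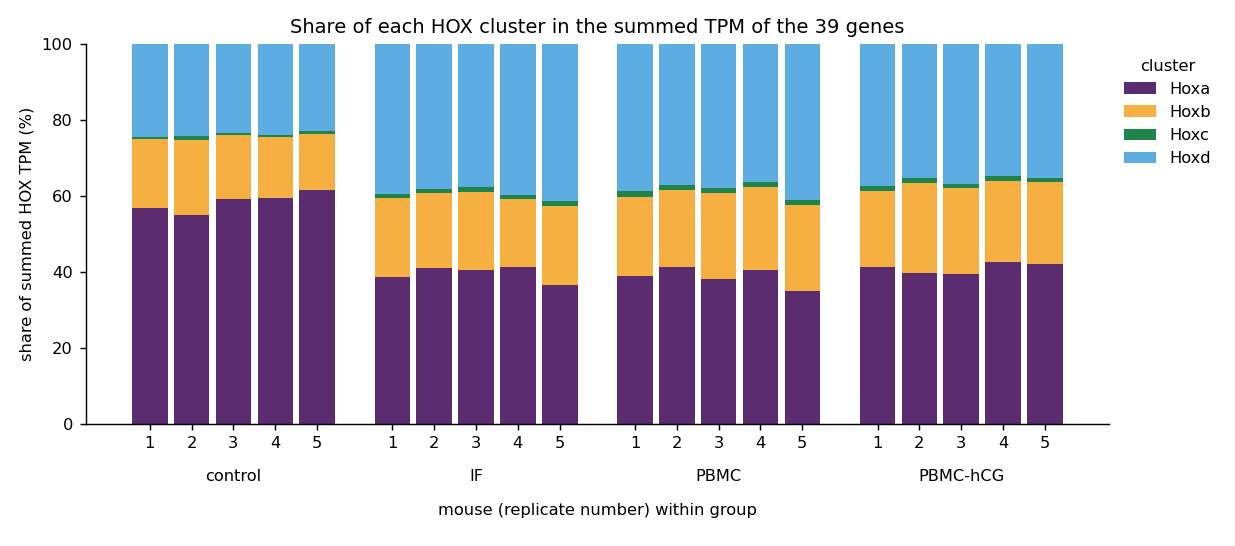
Share (%) of clusters A, B, C and D in the summed TPM of the 39 HOX genes, with 1 bar for each mouse. Cluster A takes 55.0% to 61.4% in the control mice and at most 42.6% in any mouse given RU486.

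Since paralogs of the same number were measured in the same libraries, their ratios do not depend on the scaling of a library. The ratio of Hoxa9 to Hoxd9 was 0.614 ± 0.0371 in the control group and 0.269 ± 0.0333, 0.285 ± 0.0623 and 0.309 ± 0.0214 in the IF, PBMC and PBMC-hCG groups. Hoxa10 to Hoxd10 went from 4.88 ± 0.275 to 2.27 ± 0.206, 2.11 ± 0.301 and 2.35 ± 0.215. Hoxa11 to Hoxd11 went from 7.19 ± 1.001 to 2.96 ± 0.400, 3.23 ± 0.249 and 3.45 ± 0.374. For each of the 3 pairs the lowest control mouse was above the highest mouse of the other groups. The RU486 groups overlapped one another in all 3 ratios, and each mean of the PBMC-hCG group was far nearer to the IF mean than to the control mean.

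**Figure D4:**
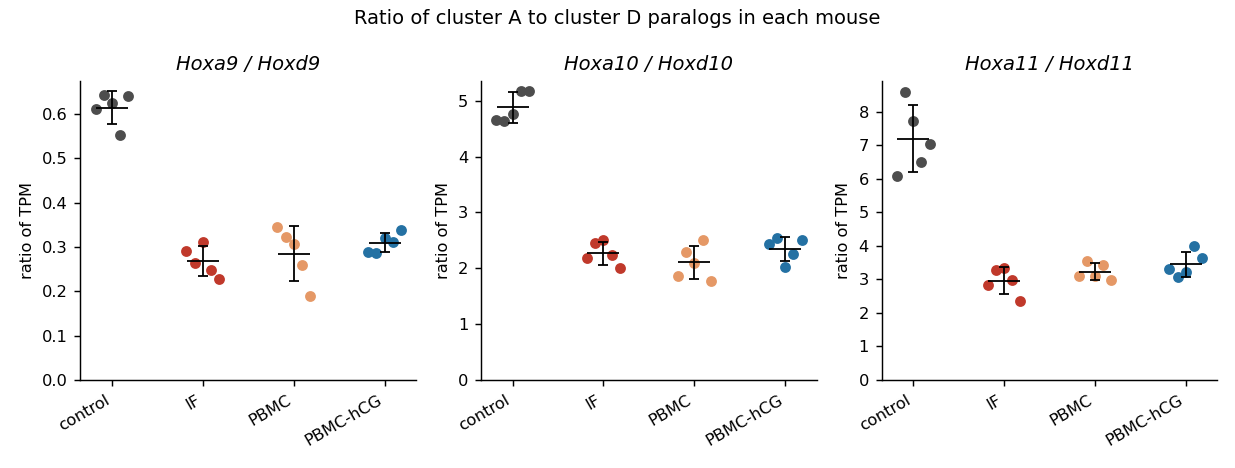
Ratio of the TPM of the cluster A gene to that of its cluster D paralog for numbers 9, 10 and 11 in each mouse, with the mean and SD of each group of 5. The control mice lie apart at 0.552 to 0.643, 4.63 to 5.18 and 6.07 to 8.60, and the other groups overlap.

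The PBMC group was compared with the IF group to ask what cells cultured without hCG changed. None of the 28 HOX genes passed limma's test, nor did any of the 18706 genes (0% called, 1271 at a raw p under 0.05), and 3 HOX genes, Hoxa7, Hoxc5 and Hoxc8, had a raw p under 0.05. The difference was positive for 27 of 28 HOX genes, against 55.4% of all tested genes, with a median of 0.23 against 0.02 on the log2 scale. Without IF replicate 5 it was positive for 21 of 28 with a median of 0.15. That mouse had the lowest HOX sum of all 20 (514 TPM) and was the lowest IF mouse for 22 of 28 HOX genes and for 34.2% of all tested genes. It had 76.5 TPM of adipose markers against 2.88 to 5.997 TPM in the other IF mice, and their part in this difference was not tested. PBMC replicate 5 was the lowest of its group for 18 of 28 HOX genes and for 42.0% of all tested genes.

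The PBMC-hCG group was compared with the IF group to ask what hCG-treated cells changed. Hoxb8, Hoxb5, Hoxa10 and Hoxd10 rose and none fell, where 7.61% of all tested genes were called higher and 5.99% lower, and 12 of 28 had a raw p under 0.05. All 28 differences were positive (27 with size factors, and 27 without IF replicate 5), against 56.7% of all tested genes, with a median of 0.38 against 0.05 on the log2 scale. None of the 28 genes was called when IF replicate 2, 4 or 5 or PBMC-hCG replicate 2, 3, 4 or 5 was left out (9 to 12 then had a raw p under 0.05), whereas 9 were called without IF replicate 3 and 7 without PBMC-hCG replicate 1. With all mice 4 were called, and a fit with the replicate number as a block called 8. Without filter on low values only Hoxb8 was called, and without the variance trend only Hoxb5 and Hoxb8. The share of all tested genes called in these other fits is not given here, so the moves cannot be read as particular to HOX genes. Over all 20 alternatives the log2 fold changes stayed positive, at 0.55 to 0.79 for Hoxb8, 0.53 to 0.75 for Hoxb5, 0.29 to 0.51 for Hoxa10 and 0.29 to 0.42 for Hoxd10.

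Hoxb8, a gene also known for its part in myeloid progenitors, was at 25.3, 20.9, 22.9, 20.4 and 13.9 TPM in the IF mice and 24.4, 36.0, 38.1, 33.3 and 33.9 TPM in the PBMC-hCG mice. It rose by 0.69 ± 0.17 on the log2 scale (adjusted p = 0.029), and 4 of the 5 PBMC-hCG mice were above all IF mice. The controls, at 25.9, 32.6, 25.9, 22.0 and 18.2 TPM, and the PBMC mice, at 28.9, 26.8, 25.5, 31.6 and 18.9 TPM, overlapped both. Markers of immune cells (14 genes) summed to 627 to 894 TPM in the IF group and 693 to 979 TPM in the PBMC-hCG group, and 0 of the 12 tested were called in this comparison. Hoxb5 was at 9.35, 8.97, 12.2, 8.20 and 6.61 TPM in the IF mice and 11.9, 14.4, 14.6, 14.4 and 14.2 TPM in the PBMC-hCG mice. It rose by 0.64 ± 0.17 (log2, adjusted p = 0.031), with a single PBMC-hCG mouse inside the IF range. Its levels were 10.8, 17.0, 9.49, 8.38 and 9.57 TPM in the control mice and 12.6, 10.1, 10.9, 10.6 and 8.32 TPM in the PBMC mice.

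Hoxd10, which acts with its paralogs in the limb and the lower spinal cord, was at 64.1, 59.4, 68.5, 64.0 and 48.2 TPM in the IF mice and 67.9, 69.7, 89.7, 90.8 and 75.3 TPM in the PBMC-hCG mice. The log2 fold change was 0.37 ± 0.11 (adjusted p = 0.042). Since its control values were 53.7, 60.6, 53.1, 49.7 and 48.7 TPM, the rise went away from the control level. The PBMC mice had 88.9, 74.1, 67.3, 67.7 and 58.2 TPM, which overlapped the IF and PBMC-hCG groups. Hoxa10, by contrast, rose by 0.42 ± 0.13 on the log2 scale over the IF group (adjusted p = 0.047), toward the control level, and remained 0.50 ± 0.13 below control in the direct comparison (log2 fold change −0.50, adjusted p = 0.0091). Hoxa11 showed a log2 difference of 0.29 ± 0.12 over the IF group (adjusted p = 0.10) and Hoxa9 one of 0.31 ± 0.19 (adjusted p = 0.24), and neither passed the test.

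Between the PBMC-hCG and PBMC groups no HOX gene passed the test (0.0107% of all tested genes did), and 2, Hoxa10 and Hoxb5, had a raw p under 0.05. Their log2 differences were 0.31 ± 0.13 and 0.41 ± 0.17, each with an adjusted p of 0.29. The interval of the difference for Hoxa11 was −0.03 to 0.47 on the log2 scale, so a difference between the 2 kinds of cells was neither shown nor bounded closely.

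Against the control group, which the 2 following comparisons share with the IF comparison, the PBMC-hCG group had 10 HOX genes higher and 2 lower, where 20.2% of all tested genes were called higher and 11.6% lower. Hoxa11 (log2 fold change −0.81, adjusted p = 8.4e-05) and Hoxa10 fell. All 6 tested genes of cluster D rose, together with Hoxb3, Hoxb9, Hoxc4 and Hoxc6. In cluster D the log2 fold changes ran from 0.25 (Hoxd11) to 0.73 (Hoxd3), with Hoxd9 at 0.58 ± 0.10 and Hoxd10 at 0.56 ± 0.11. The calls of Hoxd4 and Hoxd11 held least well and were lost in 10 and 6 of 20 alternatives, size factors among them for both. The number called was 18 without control replicate 2 and 9 to 14 when any other mouse of these groups was left out. The share of all tested genes called in those fits is not given here. Control replicate 2 had the highest value of the controls for 21 of 28 HOX genes and for 28.7% of all tested genes. It had the lowest value for 1 HOX gene and for 39.8% of all tested genes. Of the 11 myometrial markers 6 were called lower in this comparison and none higher, and of the 7 endothelial markers 7 were called higher.

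Hoxd11, a paralog of Hoxa11, was at 34.2, 25.8, 29.6, 32.9 and 27.5 TPM in the control mice and at 36.0, 32.3, 34.3, 37.2 and 30.7 TPM in the IF mice. The PBMC mice had 33.6, 35.4, 33.4, 33.7 and 27.0 TPM and the PBMC-hCG mice 35.2, 34.5, 37.1, 33.2 and 37.5 TPM. The change from control was small and the PBMC-hCG group overlapped it (log2 fold change 0.25 ± 0.08, adjusted p = 0.030). Hoxd4 was at 29.6, 51.5, 30.3, 32.0 and 27.3 TPM in the control mice and 44.9, 37.6, 57.4, 37.0 and 27.8 TPM in the IF mice. With cells it was at 50.5, 50.9, 40.5, 45.9 and 33.0 TPM (PBMC) and 43.4, 47.5, 49.8, 44.3 and 53.9 TPM (PBMC-hCG). All PBMC-hCG mice were above 4 of the 5 controls, control replicate 2 being the exception (log2 fold change 0.52 ± 0.18, adjusted p = 0.033).

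Of the tested HOX genes outside clusters A and D, Hoxb9 and Hoxc4 alone separated the PBMC-hCG mice from all controls. For Hoxc4 the gap was narrow (0.677 against 0.652 TPM). The share of all tested genes that separated these groups is not given here. Hoxb9, which with Hoxa9 and Hoxd9 takes part in the growth of the mammary gland, was at 5.20, 4.82, 5.50, 4.52 and 4.27 TPM in the control mice and 7.51, 6.23, 5.99, 7.78 and 6.88 TPM in the PBMC-hCG mice (log2 fold change 0.49 ± 0.12, adjusted p = 0.0057). The IF mice had 5.73, 6.08, 8.05, 5.04 and 6.10 TPM and the PBMC mice 5.25, 6.15, 6.25, 7.45 and 6.07 TPM, between and across both. Hoxc4 was at 1.37 TPM or below, with 0.215, 0.652, 0.514, 0.437 and 0.363 TPM in the control mice and 0.677, 1.37, 1.37, 1.03 and 0.798 TPM in the PBMC-hCG mice. Its log2 fold change of 1.11 ± 0.27 (adjusted p = 0.0045), on the log2(TPM + 0.1) scale that understates changes of low genes, was the only one of a HOX gene to meet the study's criteria in this comparison. With a pseudocount of 1 it was 0.51, below the size of the Hoxa11 change (−0.80 there), and it still passed. Hoxc4 was at 0.521, 0.533, 0.818, 1.01 and 0.491 TPM in the IF mice and 1.31, 0.923, 0.575, 0.951 and 0.560 TPM in the PBMC mice.

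Hoxc6, which is known from the thoracic segments, was at 1.93, 3.82, 1.87, 1.0 and 1.96 TPM in the control mice and 4.27, 4.01, 2.94, 4.44 and 2.57 TPM in the PBMC-hCG mice. It rose by 0.85 ± 0.25 on the log2 scale (adjusted p = 0.014), with control replicate 2 inside the PBMC-hCG range. The IF mice had 2.33, 2.04, 3.15, 3.15 and 2.61 TPM and the PBMC mice 3.75, 3.24, 2.94, 3.43 and 4.33 TPM. Hoxb3 was at 10.6, 12.9, 13.8, 12.1 and 9.07 TPM in the control mice and 13.2, 15.4, 15.3, 17.1 and 17.7 TPM in the PBMC-hCG mice, and it rose by 0.43 ± 0.14 on the log2 scale (adjusted p = 0.027). It was at 12.3, 11.8, 16.0, 11.3 and 8.97 TPM in the IF mice and 15.8, 16.1, 14.6, 15.9 and 11.2 TPM in the PBMC mice. Exons of Hoxb3 share 2250 bases with those of Hoxb3os on the other strand.

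**Figure D5:**
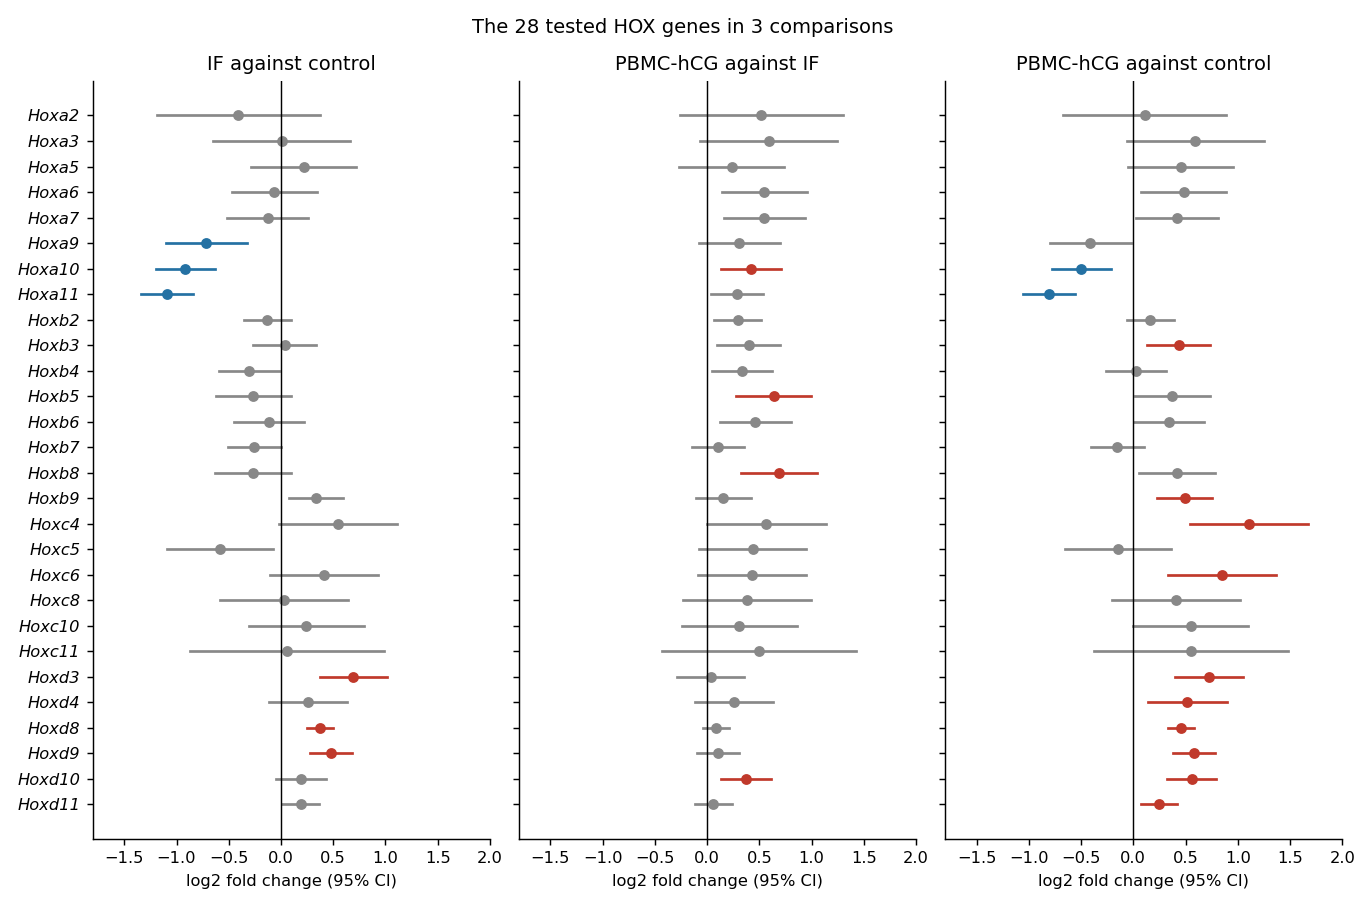
Log2 fold change with its 95% confidence interval (limma) of the 28 tested HOX genes in 3 comparisons, red for called higher, blue for called lower and grey for not called. All points of PBMC-hCG against IF lie right of 0 (27 of 28 with size factors), and in both comparisons with the control group Hoxa10 and Hoxa11 lie left of 0 and cluster D right of it.

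The PBMC group differed from the control group in 9 HOX genes, with 6 higher and 3 lower, where 12.8% of all tested genes were called higher and 6.70% lower. The 3 lower genes were Hoxa9, Hoxa10 and Hoxa11, with log2 fold changes of −0.64, −0.81 and −1.02 (adjusted p = 0.020, 3.2e-04 and 1.1e-05). Higher were Hoxd3, Hoxd8, Hoxd9 and Hoxd10 at 0.41 to 0.79 and Hoxc4 and Hoxc6 at 0.84 and 0.82. The Hoxc4 call was lost in 8 of 19 alternatives, over which its log2 fold change ran from 0.37 to 1.10, and the Hoxc6 call in 3 of 20. For Hoxa9 the PBMC and control groups did not overlap, whereas in the PBMC-hCG group its difference from control was −0.41 ± 0.19 (adjusted p = 0.10), a value that did not pass. A direct test of Hoxa9 between the 2 groups gave 0.23 ± 0.19 (adjusted p = 0.50).

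The abundant genes of cluster B that were called in no comparison had overlapping groups throughout. Hoxb6, known with Hoxb5 and Hoxb8 from trunk mesoderm, was at 52.5, 73.6, 46.6, 46.1 and 39.7 TPM in the control mice and 52.9, 48.2, 59.9, 40.8 and 35.4 TPM in the IF mice. The PBMC mice had 59.2, 59.2, 58.3, 61.5 and 43.0 TPM and the PBMC-hCG mice 50.2, 67.6, 71.6, 71.6 and 63.1 TPM. The difference of the PBMC-hCG from the IF group was 0.46 ± 0.16 on the log2 scale and missed the threshold (adjusted p = 0.058). Hoxb7 was at 22.7, 29.1, 20.5, 18.8 and 16.2 TPM in the control mice, 17.8, 15.6, 20.7, 16.5 and 17.8 TPM in the IF mice, 21.6, 18.4, 21.5, 19.9 and 20.7 TPM in the PBMC mice and 18.9, 17.9, 17.2, 18.6 and 22.5 TPM in the PBMC-hCG mice. The PBMC-hCG and PBMC groups differed by −0.10 ± 0.12 on the log2 scale (adjusted p = 0.65). Hoxb2, a hindbrain gene, was at 18.0, 16.8, 16.7, 14.6 and 12.0 TPM in the control mice, 15.0, 16.6, 14.7, 13.1 and 11.7 TPM in the IF mice, 14.1, 17.4, 17.3, 16.0 and 16.7 TPM in the PBMC mice and 16.1, 18.8, 18.5, 15.9 and 17.7 TPM in the PBMC-hCG mice. The tested genes that remain, Hoxa2, Hoxa3, Hoxa5, Hoxa6, Hoxa7, Hoxb4, Hoxc5, Hoxc8, Hoxc10 and Hoxc11, passed in no comparison. Hoxb4 was at 6.42 to 12.1 TPM over the 20 mice and the others at 0.112 to 4.75 TPM.

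The 11 genes that were at 0 TPM in at least 1 library, and so were not tested, lay mostly at the ends of the clusters. Hoxb13, Hoxc12 and Hoxc13 were listed at 0 in all 20 mice. Hoxb1, Hoxd1, Hoxd12 and Hoxd13 were at 0.126 TPM or below in every mouse, and Hoxa4 and Hoxc9 at 0.403 TPM or below. Hoxa13, the cervical and vaginal member of cluster A, was at 0.686, 0.553, 0.676, 0.909 and 0 TPM in the control mice. In the IF mice it was at 0.0554, 0.224, 0.269, 0.140 and 0.214 TPM, and in the mice given cells at 0 to 0.319 TPM. Of the controls 4 were above all 15 other mice and 1 was listed at 0, and a value of 0 in these files can also be a failed estimate.

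Antisense RNAs accompany several of these genes. Hoxa11os, which is transcribed from the opposite strand and shares 800 bases with the exons of Hoxa11 (35.0% of them) in GENCODE M21, was nearly as abundant as Hoxa11. It was at 169.7, 196, 169.0, 172 and 152 TPM in the control mice and 82.8, 79.9, 117, 75.6 and 55.6 TPM in the IF mice, without overlap, and fell by 1.10 on the log2 scale (adjusted p = 0.0012). Its ratio to Hoxa11 was 0.806 ± 0.0530, 0.808 ± 0.127 and 0.813 ± 0.188 in the control, IF and PBMC groups and 1.02 ± 0.0953 in the PBMC-hCG group, whose mice had 108, 121, 129.9, 133 and 128 TPM. The library kit was stranded, but whether the authors' counting used the strand is not given in the sources used here, so reads of the shared bases may have been placed with either gene. Hoxb5os fell as well (log2 fold change −0.59, adjusted p = 0.011), and Hoxb3os did not pass (−0.11, adjusted p = 0.82). Of 15 antisense and long noncoding RNAs of the clusters that were listed, 12 were in the table and only these 3 were above 0 TPM in all libraries.

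Of the 9 TALE partners of HOX proteins, all of which were tested, 2 were called higher and 2 lower between the IF and control groups. Of all tested genes 13.4% were called higher and 8.53% lower. The median log2 fold change was 0.09 for the partners against 0.02 for all tested genes. Pknox2 fell by 0.69 on the log2 scale (adjusted p = 1.7e-04), from 55.9 ± 4.21 to 34.9 ± 6.18 TPM. Pknox1 rose by 0.37 (adjusted p = 0.015) and Meis2 by 0.35 (adjusted p = 0.028). In the PBMC-hCG group 3 partners were higher than in the IF group and none lower, against 7.61% and 5.99% of all tested genes. Among the 3 were Meis1 and Meis2 (log2 fold changes of 0.32 and 0.46, adjusted p = 0.044 and 0.029). Meis2 thereby stood at 87.9 ± 10.4 TPM against 50.2 ± 2.95 TPM in the control group. Pknox2 was at 29.3 ± 2.54 TPM in the PBMC-hCG group and remained below control (−0.93, adjusted p = 8.9e-06).

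Genes that have been linked to Hoxa10 or Hoxa11 in the uterus moved in both directions. Of 10 tested, 3 rose and 2 fell between control and IF mice, where 13.4% of all tested genes were called higher and 8.53% lower. Ptger3, a prostaglandin E2 receptor gene, fell by 2.23 on the log2 scale (adjusted p = 2.8e-09), from 47.9 ± 6.74 to 10.3 ± 2.19 TPM, and was at 13.2 ± 1.79 TPM in the PBMC-hCG group. Itgb3, which encodes the integrin beta-3 chain, rose from 32.0 ± 2.69 to 79.1 ± 9.35 TPM (log2 fold change 1.30, adjusted p = 1.8e-05). Cdkn1a, a cell cycle inhibitor gene, rose by 0.71 (adjusted p = 0.0083) and Ccnd3, the gene of cyclin D3, fell by 0.31 (adjusted p = 0.049). Itgb3 and Cdkn1a were the 2 of the list called between the PBMC-hCG and IF groups, and both fell, by 0.67 and 0.64 on the log2 scale (adjusted p = 0.029 and 0.035). Of all tested genes 5.99% were called lower in that comparison.

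Of 15 tested genes that pattern the Müllerian duct, 7 were called higher and 1 lower in IF mice than in controls, against 13.4% and 8.53% of all tested genes, with a median log2 fold change of 0.23 against 0.02 for all tested genes. Wnt4, a secreted signal needed for the duct to form and for decidualization, rose from 4.90 ± 1.41 to 25.5 ± 11.8 TPM (log2 fold change 2.27, adjusted p = 6.4e-04) and was at 10.2 ± 7.34 TPM in the PBMC-hCG group. Amhr2, the receptor gene of anti-Müllerian hormone, and Wnt7a, an epithelial signal that maintains Hoxa10 and Hoxa11 in the mouse uterus, rose by 1.01 and 0.90 on the log2 scale (adjusted p = 0.021 and 7.8e-04). In the PBMC-hCG against IF comparison 2 of the list were higher and 1 lower, against 7.61% and 5.99% of all tested genes. Dach1 rose (0.43, adjusted p = 0.045) while Wnt4 fell by 1.39 (adjusted p = 0.039).

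Polycomb proteins keep HOX genes silent and Trithorax proteins keep them active. Of 29 Polycomb genes RU486 alone left 3 higher and 3 lower than in controls, with a median log2 fold change of 0.07, and of 14 Trithorax and KMT2 genes 2 were higher and 1 lower, with a median of 0.13. These counts were near the background, as 13.4% of all tested genes were called higher and 8.53% lower, with a median of 0.02. Rybp, Cbx2, Rbbp7 and Pcgf6 had the largest changes that passed, of 0.70, −0.64, −0.51 and −0.38 on the log2 scale. The other 2 Polycomb genes that passed were Rnf2, a ubiquitin ligase gene (0.36, from 30.1 ± 2.37 to 38.6 ± 3.25 TPM), and Pcgf5 (0.34). Cbx2 and Pcgf1 were the 2 Polycomb genes called between the PBMC-hCG and IF groups, both higher, and Dot1l, Wdr5 and Kdm6a were the 3 called of the other list (log2 fold changes of −0.41, −0.36 and 0.31). In that comparison 7.61% of all tested genes were called higher and 5.99% lower. Of the 6 caudal and cluster-end homeobox genes (Cdx1, Cdx2, Cdx4, Evx1, Evx2 and Gbx2) none was above 0 TPM in all libraries.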

How the data were processed

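The authors trimmed the reads of stranded mRNA libraries with Trimmomatic, mapped them to mm10 with HISAT2 and assembled transcripts with StringTie. The values they deposited are TPM per gene, 1 column for each of 20 mice. The annotation release and the use of strand are not given in the sources used here. Groups came from the sample labels.

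Values were transformed to log2(TPM + 0.1), and the 18706 genes that exceeded 0 TPM in every library, a filter modelled on the study's, were fitted over the 4 groups together with limma 3.58.1 in R 4.3.3 (eBayes with a variance trend). P-values were adjusted by Benjamini-Hochberg within each of 6 comparisons, and a gene was called at an adjusted p under 0.05. The study's edgeR exact test needs counts and was not run. Limma was tested on simulated data with known changes. The 18 HOX genes called in any comparison or with a mean of at least 10 TPM are given for every mouse, the others by range. Of the companion lists, at most the 4 genes of largest change that passed are named per comparison, as are antisense RNAs overlapping a named gene. Rnf2 and Pcgf5 were added after their values were seen. Members and lists were chosen with earlier results of these data known. P-values measure the spread between mice, each of which gave 1 library. The share of all tested genes whose groups did not overlap is not given, so a lack of overlap is stated without a background. Promoters came from RefSeq (GRCm38.p6), exon overlaps from GENCODE M21. Reading used the data.table package (1.17.8) and drawing used matplotlib 3.10.9. Alternatives were other pseudocounts, filters, scalings, fits and criteria, and mice left out. Values of 1 HOX gene and 1 listed partner gene are not reported here, though sums and counts include them.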

Additional observations from a re-analysis of the deposited data

Results flagged for a closer look

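In 18 HOX genes and 4 groups of 5 mice, 72 sets in all, 7 had an end value whose gap to its neighbour exceeded 0.71 of the range of the set (Dixon's 95% critical value). Chance alone gives about 1 such set in 20 for normally distributed values. The 72 sets came from the same 20 mice and were not independent, so their number is no test against that rate. Control replicate 2, the mouse with 417 TPM of adipose markers, was the highest control for Hoxa10 (281 TPM, the next at 257), Hoxb5 (17.0 TPM, the next at 10.8) and Hoxd4 (51.5 TPM, the next at 32.0). PBMC replicate 5 was the lowest of its group for Hoxb6 (43.0 TPM, the next at 58.3) and Hoxd11 (27.0 TPM, the next at 33.4). PBMC-hCG replicate 1 was the lowest for Hoxb5 (11.9 TPM, the next at 14.2) and PBMC-hCG replicate 2 for Hoxd9 (68.9 TPM, the next at 77.5). The part of adipose tissue in the values of control replicate 2 was not tested.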

How the results depend on the processing

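Of the 28 tested HOX genes the IF against control comparison called 6, and 6 to 8 when each mouse was left out. PBMC-hCG against IF called 4, with a range of 0 to 9 over the mice left out, 1 without the filter on low values, 2 without the variance trend and 8 with the replicate number as a block. PBMC against control called 9 (7 to 11 over the mice left out) and PBMC-hCG against control 12 (9 to 18). Leaving out control replicate 2, IF replicate 5 and PBMC replicate 5 together, an alternative chosen after seeing the data, gave 9, 4, 17 and 21 calls in these comparisons. A fold change of at least 2 with a raw p under 0.05 gave 1, 0, 1 and 1, where 4.03% of all tested genes met it in IF against control. The share of all tested genes called in the other alternatives and comparisons is not given here. The moves in these counts thus cannot be read as particular to HOX genes. The causes of these moves were not tested. No HOX gene reversed in a comparison that called it. Uncalled HOX genes and genes of the companion lists were not followed gene by gene over the alternatives. The median of the HOX genes in IF against control, 0.02 on the log2 scale, became −0.01 with size factors, as did that of all tested genes. No pairing of the mice by replicate number was seen. The deviations of same-numbered mice had a median correlation of −0.0097 over 30 pairs, 8 of which were over 0.1. Those of differently numbered mice had a median of 0.0088 over 120 pairs, 31 of which were over 0.1. Of 20 mice, 2 correlated best with their own number. Whether some of the mice shared a batch was not tested. Depth was unknown, so the precision of genes at low TPM could not be given.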
